A study of Homo sapiens with 11 samples.

Results

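The genes of the proteasome, the multi-subunit protease that degrades ubiquitin-tagged proteins, were followed in ARPE-19, a human cell line that derives from the retinal pigment epithelium (RPE). Members were all rows of the deposited expression table whose symbol has the form PSMA to PSMG followed by a number, which gave 48 of 60605 listed features. Stable lines expressed an open reading frame for GFP, a fluorescent protein that served as the control, or for the transcription factors Oct4, Sox2 or Klf4 singly, or all of these factors together (OSK), and RNA was taken after 4 days of expression. There were 3 GFP libraries and 2 libraries of each other line, made from polyadenylated RNA. The library names of all factor lines carry the letters mC, and those of the GFP line do not. In comparisons with GFP, whatever mC stands for cannot be told apart from the factors. The labels do not give the promoter that drives the open reading frames, their species, whether a line is 1 clone, or whether replicates are separate cultures, so the p-values measure the spread between these libraries, which may be technical. The submitters describe the data as the source of a heatmap of candidate oxidative effectors, and the comparison made here asks which proteasome genes differed among the 5 lines.

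As background, the 26S proteasome is built from a barrel, the 20S core, capped by 19S regulatory particles. The core stacks rings of alpha subunits (PSMA genes) around rings of beta subunits (PSMB genes), of which PSMB5, PSMB6 and PSMB7 carry the peptide-cutting sites. Interferons induce PSMB8, PSMB9 and PSMB10, which take the places of PSMB5, PSMB6 and PSMB7 in newly assembled cores, and the resulting immunoproteasome changes the peptides offered on class I molecules. The 19S particle holds a ring of ATPases (PSMC genes) that unfolds substrates and non-ATPase subunits (PSMD genes), some of which receive or remove ubiquitin. PSMD5, PSMD9 and PSMD10 encode chaperones of 19S assembly instead. The PSME genes encode other caps, PSMF1 an inhibitor, and the PSMG genes chaperones that assemble the core. Proteasome activity is of interest in RPE because these cells live under high oxidative load and degrade damaged proteins throughout life.

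The values are normalised counts: each library's reads per gene, scaled by that library's own factor. The libraries held 15053300 to 19791775 reads. GFP replicate 1 and OSK replicate 1 stood apart from the other 9: 42956 and 32493 features had at least 1 read in them, against 25853 to 26971 in the others, and genes of olfactory receptors were detected at 67.7% and 23.0%, against 4.94% to 8.15%. The counts of members called in each comparison were therefore repeated without these 2 libraries, an alternative chosen after the data were seen. The delivered genes were high in the lines labelled for them: POU5F1, the gene of Oct4, ranged from 66823 to 67326 in Oct4 and from 252 to 276 in GFP, SOX2 from 29106 to 29141 in Sox2 and from 43.7 to 82.4 in GFP, and KLF4 from 22142 to 24205 in Klf4 and from 45.5 to 124 in GFP. In OSK, POU5F1 (19020.3 to 19542) and SOX2 (17582 to 17764) were below their level in the single-factor line, and KLF4 (24202 to 24470) was at about the level of the Klf4 line. Of 13 RPE markers, 11 had a group mean above 10 in GFP, with a summed level of 2072 to 2121 CPM (the share of the summed values of a library), while RPE65 reached at most 4.63 and TTR was near 0. The RPE marker sum was lower in the other lines, at 1029 to 1071 CPM in Oct4, 1287 to 1322 in Sox2, 1453 to 1609 in Klf4 and 932 to 945 in OSK. The sum hides single markers. The largest in Sox2 were KRT8 and KRT18, with mean normalised counts of 14283 and 5015 (15930 and 5307 in GFP). PMEL, TYRP1 and MITF had means of 140, 134 and 769 in Sox2 against 5147, 2491 and 3406 in GFP. CDH1 was higher in Sox2, at 321 against 235. The sum over 7 mesenchymal markers was 872 to 974 in GFP, 786 to 891 in Oct4 and 881 to 1023 in Sox2. It was 422 to 493 in Klf4 and 312 to 357 in OSK. This sum too hides single markers. PDGFRB, the largest in GFP, had means of 11258 in GFP, 8609 in Oct4 and 6434 in Sox2. In the same order ACTA2 had 528, 3302 and 1929, and COL1A1 had 3856, 3082 and 7699. Of 7 blood cell markers, 2 had a mean above 10 in GFP and none in the other lines, with sums of 0.256 to 9.05 CPM over all libraries. The sum over 8 proliferation markers was 127 to 141 CPM in GFP, 120 to 131 in Oct4, 247 to 252 in Sox2, 447 to 524 in Klf4 and 442 to 465 in OSK, and the part of these marker lists in the results below was not tested. In bulk RNA, fewer cells of a type and less RNA per cell cannot be told apart.

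Most proteasome genes were abundant and moved little, and a few moved by large factors in particular lines. Of the 48 members, 46 passed the filter on low values (10 or more in 2 or more libraries). PSMA8, a testis alpha subunit, reached 0.99 in a single library, and PSMB11, a thymus beta subunit, reached 5.96 and was above 0 in 2 libraries, so neither was tested. A limma F test over the 5 groups called 26 of 46 members at a Benjamini-Hochberg adjusted p under 0.05, where 65.7% of all 18828 features tested were called. Among features with a mean of at least 100, as 45 members had, 84.9% were called, against 57.8% of those members (26 of 45). The median range between the lowest and highest group mean was 0.36 on the log2 scale for the members, 0.96 for all features and 0.68 for features with a mean of at least 100. In 15 members the range was at least 0.5 log2 with a called F test, where 54.3% of all features met both, and in 4 it was at least 1 log2, where 33% did. These 4 were PSMB9 (range 3.06), PSMB10 (2.44), PSMB8 (2.15) and PSMG1 (1.62). Without the 2 libraries that stood apart the F test called 27 members.

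**Figure D1:**
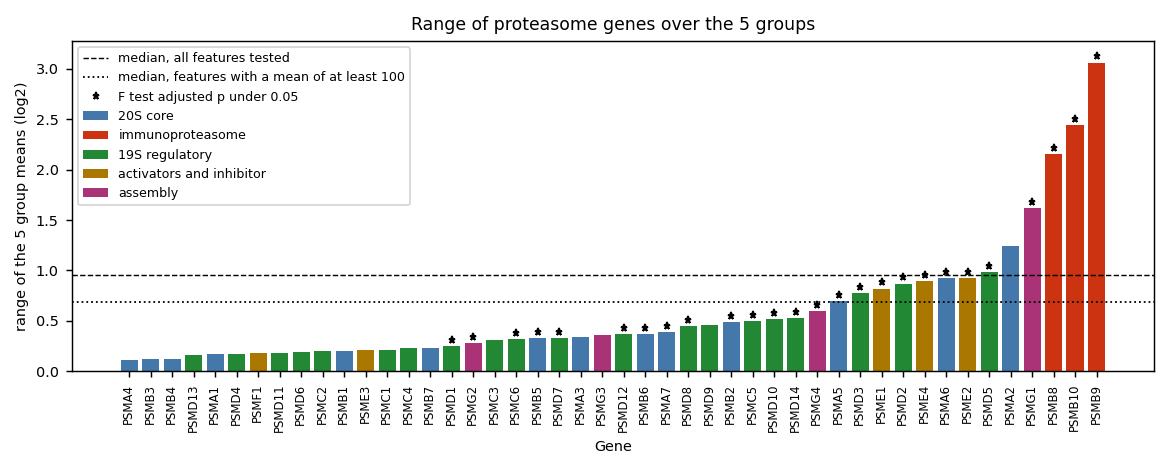
Bars give the range of the 5 group means (log2 scale) of each of the 46 tested proteasome genes, in order of size and coloured by class, with a star where the F test over the groups had an adjusted p under 0.05. The dashed and dotted lines mark the median range of all features tested (0.96) and of features with a mean of at least 100 (0.68), and PSMB9, PSMB10, PSMB8 and PSMG1 stand at the right end. The bar of PSMA2 (1.24), a gene counted at 8 to 37.0 in every library, carries no star.

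Against GFP, changes ran upward more often than downward in each line. In Oct4, 17 members were higher and 1 lower (37.3% of all features were called in either direction, 20.1% higher and 17.2% lower). In Sox2, 15 were higher and 4 lower (background 41.6% called, 21.7% higher and 19.9% lower). In Klf4, 8 were higher and 3 lower (background 33.5% called, 17.6% higher and 16% lower). In OSK, 13 were higher and 1 lower (background 39.7% called, 19.7% higher and 20% lower). As shares of the 46 members tested, the higher calls were 37% in Oct4, 32.6% in Sox2, 17.4% in Klf4 and 28.3% in OSK. The same shares among all features with a mean of at least 100 were 27.2%, 31.2%, 24.5% and 27.7%. Against that background the members' share was higher in Oct4, near it in Sox2 and OSK and lower in Klf4. The lower calls made up 2.17%, 8.7%, 6.52% and 2.17% of the members, below the 24.3%, 25.2%, 21.7% and 26.5% of features with a mean of at least 100. The median log2 change of the members was 0.08 in Oct4, 0.08 in Sox2, 0.05 in Klf4 and 0.10 in OSK, where the median of all features was -0.02, -0.02, -0.02 and -0.01. These 4 comparisons share the GFP libraries.

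Many of the smaller calls did not hold under other settings. All 20 alternative settings kept 12 of the 18 calls in Oct4, 9 of 19 in Sox2, 5 of 11 in Klf4 and 7 of 14 in OSK. The calls kept in Oct4 were PSMB8, PSMB9, PSMB10, PSME1, PSME2, PSME4, PSMA5, PSMB2, PSMD3, PSMD5, PSMD10 and PSMG1. Those kept in Sox2 were PSME1, PSME2, PSMD2, PSMD5, PSMD8, PSMD10, PSMD12, PSMD14 and PSMG1. Those kept in Klf4 were PSMB8, PSMB9, PSMB10, PSMA6 and PSMC5, and those kept in OSK were the same 5 together with PSMB2 and PSME4. Without GFP replicate 1 and OSK replicate 1 the counts of calls were 16 in Oct4, 15 in Sox2, 10 in Klf4 and 11 in OSK. The count in Sox2 went down to 12 without either Sox2 replicate, that in Klf4 to 6 without Klf4 replicate 1 and that in OSK to 9 without either OSK replicate.

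**Figure D2:**
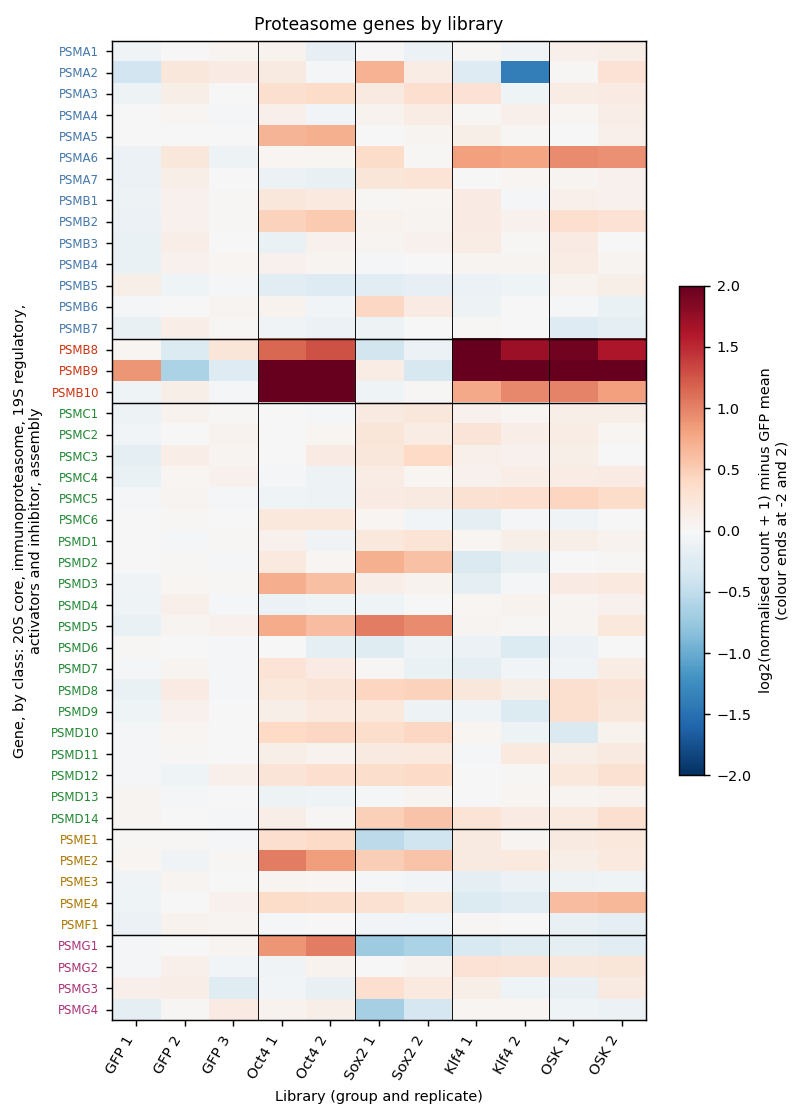
Each row is 1 of the 46 tested proteasome genes and each column 1 of the 11 libraries; colour gives log2(normalised count + 1) minus the mean of the 3 GFP libraries, and ends at -2 and 2. The 3 immunoproteasome rows are red in Oct4, Klf4 and OSK and near white in Sox2. The red is paler for PSMB10 in Klf4 and OSK and for PSMB8 in Oct4. PSMG1 is red in Oct4 and blue in Sox2, and most other rows are pale in all columns. PSMB9 also differs among the GFP columns, with 56.6 in replicate 1 against 19.2 and 25.3.

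**Figure D3:**
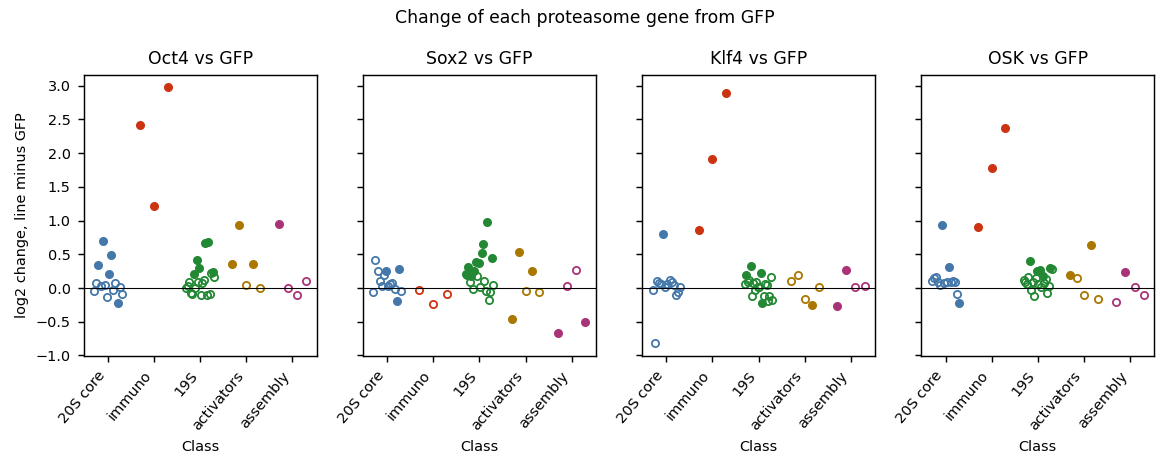
Each point is the log2 change of 1 proteasome gene from GFP in the line named above the panel, grouped by class; filled points had a limma adjusted p under 0.05 and open points did not. The immunoproteasome points lie between 0.86 and 2.98 in Oct4, Klf4 and OSK and at or below -0.03 in Sox2, and nearly all other points lie within 1 log2 unit of 0.

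The immunoproteasome genes rose in Oct4, Klf4 and OSK, and in Sox2 none of the 3 was called by limma, edgeR or DESeq2, nor had an unadjusted limma p under 0.05. They are low in these cells at baseline: per kilobase of annotated exon, the GFP mean was 11 normalised counts for PSMB9, 29.6 for PSMB10 and 57.8 for PSMB8, against a median of 397 for the tested 20S core genes. Interferon is known to act on these genes through their promoters, which are therefore shown here. Each stretch below is 100 bases around or upstream of the start site given by RefSeq (GRCh38.p14), written 5′ to 3′ on the strand of the gene, with capitals marking a match to GAAA, any 2 bases and GAAA again, the core of the interferon-stimulated response element (ISRE), on either strand. The PSMB8 stretch is chr6:32844038-32844137, minus strand, and ends 10 bases after the start site. The PSMB10 stretch is chr16:67936841-67936940, minus strand, and also ends 10 bases after the start site. No match lay in the RefSeq window of PSMB9, but PSMB9 and TAP1, a subunit of the peptide transporter of the class I pathway, are transcribed away from each other from start sites 488 bases apart. The TAP1 stretch (chr6:32853785-32853884, minus strand) lies between them and holds 2 overlapping matches, at chr6:32853823-32853838, 354 bases from the PSMB9 start site and 119 from that of TAP1.
PSMB8: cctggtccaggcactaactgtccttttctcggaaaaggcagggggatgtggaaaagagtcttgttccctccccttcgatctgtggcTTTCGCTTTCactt
PSMB10: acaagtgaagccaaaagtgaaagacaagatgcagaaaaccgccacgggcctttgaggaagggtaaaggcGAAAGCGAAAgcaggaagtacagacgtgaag
TAP1: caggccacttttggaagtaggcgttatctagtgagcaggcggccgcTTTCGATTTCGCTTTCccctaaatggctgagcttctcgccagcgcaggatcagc
The match reads GAAAGCGAAA in PSMB10 and its reverse complement, TTTCGCTTTC, in PSMB8 and in 1 of the TAP1 matches. A match is a description of these letters and not evidence of a binding site.

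PSMB8 (chr6:32840717-32844703, minus strand; positions of genes are from GENCODE release 29, GRCh38) encodes the immunoproteasome subunit that replaces PSMB5. It had, in normalised counts, 176, 142 and 202 in GFP, 382 and 417 in Oct4, 132 and 158 in Sox2, 746 and 562 in Klf4, and 656 and 527 in OSK. Both libraries of Oct4, Klf4 and OSK were above every GFP and Sox2 library, and Sox2 overlapped with GFP. The log2 change from GFP was 1.21 (SE 0.16, limma adjusted p = 1.58e-05) in Oct4, 1.91 (SE 0.16, limma adjusted p = 1.52e-07) in Klf4 and 1.77 (SE 0.16, limma adjusted p = 2.22e-07) in OSK. In Sox2 it was -0.24 (SE 0.16, limma adjusted p = 0.247), with a 95% interval of -0.58 to 0.10. Exons of PSMB8 overlap the antisense transcript PSMB8-AS1 over 20.6% of their length. The use of strand in the counting is not given in the sources used here, so reads in the shared part cannot be told apart. PSMB8-AS1 was also counted by itself, at 3.89 to 34.7 normalised counts, with 15.1 and 20.6 in Oct4, 23.1 and 22.9 in Klf4 and 34.7 and 30.8 in OSK. It had 8.94, 7.08 and 3.89 in GFP and 4.49 and 5.14 in Sox2. It overlaps exons of PSMB9 on the same strand, over 5.66% of their length.

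PSMB9 (chr6:32844136-32859585, plus strand), which replaces PSMB6, had the widest range of all members. Its values were 56.6, 19.2 and 25.3 in GFP, 219 and 274 in Oct4, 33.7 and 24 in Sox2, 252 and 210.2 in Klf4, and 189 and 137 in OSK. All libraries of Oct4, Klf4 and OSK were above all GFP and Sox2 libraries, although GFP replicate 1 had more than the other GFP libraries. The log2 change was 2.98 (SE 0.33, limma adjusted p = 3e-06) in Oct4, a 7.32-fold ratio of means, 2.89 (SE 0.33, limma adjusted p = 5.46e-06) in Klf4 and 2.37 (SE 0.33, limma adjusted p = 2.88e-05) in OSK. In Sox2 the change was -0.09 (limma adjusted p = 0.861), and its 95% interval of -0.80 to 0.62 is wide. Without GFP replicate 1 the rises were larger, at 3.42 in Oct4, 3.33 in Klf4 and 2.81 in OSK. The GENCODE span of PSMB9 begins upstream of the RefSeq start site used for the promoter above (chr6:32854192). It takes in the start site of TAP1 (chr6:32853704).

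PSMB10 (chr16:67934502-67937087, minus strand), which replaces PSMB7, differed between the lines that raised it. It had 51.6, 59.7 and 53.5 in GFP, 341 and 256 in Oct4, 51.6 and 55.7 in Sox2, 93.7 and 107 in Klf4, and 109 and 97.9 in OSK. Oct4 stood alone at the top, Klf4 and OSK lay close to each other in between, and Sox2 overlapped with GFP. The log2 change was 2.41 (SE 0.18, limma adjusted p = 3.3e-08) in Oct4, a 5.44-fold ratio of means, against 0.86 (SE 0.18, limma adjusted p = 0.00154) in Klf4 and 0.90 (SE 0.18, limma adjusted p = 0.000767) in OSK. PSMB10 was lower in OSK than in Oct4 by a log2 difference of -1.51 (SE 0.20, limma adjusted p = 1.43e-05). Its exons overlap those of the gene model AC040162.1 on the same strand over 34.8% of their length, and that model was itself higher in Oct4 (54.6 and 58.4) than in GFP (17.9, 31.4 and 25.3).

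The standard catalytic genes moved little beside them. PSMB5 had 1544, 1340.4 and 1380.3 in GFP, 1231 and 1190.3 in Oct4, 1229 and 1261 in Sox2, 1309 and 1339 in Klf4, and 1496 and 1538 in OSK. Oct4, Sox2 and Klf4 lay below all GFP libraries and OSK within their range, and the called changes were -0.23 (limma adjusted p = 0.0198) in Oct4 and -0.19 (limma adjusted p = 0.0458) in Sox2. The Oct4 call was kept under 14 of 20 alternatives and lost without GFP replicate 1, Oct4 replicate 1 or Oct4 replicate 2, and the Sox2 call was kept under 3 of 20 alternatives and lost without any single library except GFP replicate 2. PSMB6 had 738, 758 and 791 in GFP, 801 and 734 in Oct4, 1011 and 852 in Sox2, 711 and 756 in Klf4, and 748 and 692 in OSK. Sox2 was above all other libraries, with a change of 0.28 (limma adjusted p = 0.0151) that was 0.16 without Sox2 replicate 1 and then not called. PSMB7 had 1802, 2194 and 2031 in GFP, 1914 and 1840.4 in Oct4, 1862 and 2019.9 in Sox2, 2045 and 1990.5 in Klf4, and 1679 and 1762 in OSK. OSK lay below GFP, with a change of -0.22 (limma adjusted p = 0.038) that was kept under 11 of 20 alternatives and lost without GFP replicate 2, GFP replicate 3, OSK replicate 1 or OSK replicate 2.

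Set against its standard counterpart within each library and per kilobase of exon, PSMB8 was at 6.22% to 8.63% of PSMB5 in GFP, 18.3% to 20.6% in Oct4, 6.35% to 7.4% in Sox2, 24.7% to 33.6% in Klf4 and 20.2% to 25.8% in OSK. PSMB9 was at 1.2% to 3.62% of PSMB6 in GFP and 1.33% to 1.57% in Sox2, and at 12.9% to 17.6% in Oct4, 13.1% to 16.7% in Klf4 and 9.37% to 11.9% in OSK. PSMB10 was at 2.54% to 2.76% of PSMB7 in GFP and 2.66% to 2.67% in Sox2, and at 13.4% to 17.2% in Oct4, 4.42% to 5.2% in Klf4 and 5.36% to 6.29% in OSK. The standard gene thus remained the more abundant of each pair in every library.

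**Figure D4:**
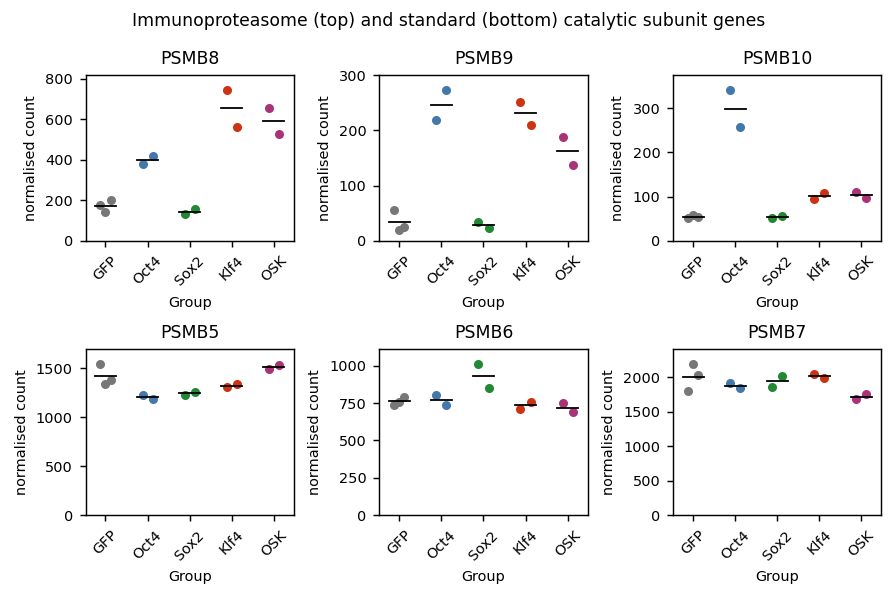
Points are the normalised counts of each library by group and bars the group means, for the immunoproteasome genes PSMB8, PSMB9 and PSMB10 above and the standard catalytic genes PSMB5, PSMB6 and PSMB7 below; each axis starts at 0. The immunoproteasome genes are high in Oct4, Klf4 and OSK, with PSMB10 highest in Oct4, and the standard genes stay near their GFP level in every line.

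Of 20 genes of interferon signalling and the class I pathway listed from general knowledge, 16 rose and 1 fell in Oct4, 9 rose and 4 fell in Sox2, 14 rose and 3 fell in Klf4 and 15 rose and 2 fell in OSK (limma). Of all features, 20.1% rose and 17.2% fell in Oct4, 21.7% and 19.9% in Sox2, 17.6% and 16% in Klf4, and 19.7% and 20% in OSK. Their median log2 change was 0.66, 0.22, 0.65 and 0.92 in that order. IRF1, a transcription factor of the interferon response, was like PSMB10 highest in Oct4: it had 183, 152 and 148 in GFP, 1719 and 1648 in Oct4, 138 and 126 in Sox2, 429 and 458 in Klf4, and 366 and 406 in OSK. Its change was 3.39 (limma adjusted p = 3.07e-12) in Oct4, 1.46 (limma adjusted p = 5.38e-08) in Klf4 and 1.26 (limma adjusted p = 1.71e-07) in OSK, and -0.28 (limma adjusted p = 0.0553) in Sox2. ERAP2, an aminopeptidase that trims class I peptides, changed by 3.15 (limma adjusted p = 1.94e-11) in Oct4, 1.91 (limma adjusted p = 7.36e-09) in Klf4 and 1.65 (limma adjusted p = 2.34e-08) in OSK, against 0.05 (limma adjusted p = 0.794) in Sox2. NLRC5, the transactivator of class I genes, had another order, with 1.64 (limma adjusted p = 2.36e-06) in Klf4 and 2.11 (limma adjusted p = 9.22e-08) in OSK, 0.44 (limma adjusted p = 0.0591) in Oct4 and -0.65 (limma adjusted p = 0.0068) in Sox2.

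Other class I genes rose in Sox2 as well. TAP2, the partner of TAP1, rose by 1.36 (limma adjusted p = 4.67e-06) in Sox2 and by 2.69, 1.94 and 2.29 in Oct4, Klf4 and OSK. HLA-B, a class I heavy chain, rose by 0.92 (limma adjusted p = 3.56e-06) in Sox2, 1.98 in Oct4 and 2.05 in OSK. In Klf4 HLA-B had 6245 and 4542, between Sox2 (3670 and 3442) and Oct4 (7593 and 7198). TAP1, singled out after its values were seen because it shares the upstream stretch with PSMB9, had 283, 323 and 339 in GFP, 670.0 and 671 in Oct4, 594 and 664 in Sox2, 960.0 and 713 in Klf4, and 873 and 797 in OSK. It rose in all 4 lines, by 1.00 (SE 0.12, limma adjusted p = 3.7e-06) in Sox2 and 1.09 (limma adjusted p = 1.78e-06) in Oct4, whereas PSMB9 changed by -0.09 and 2.98 in the same lines.

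Among the activators and the inhibitor, the caps other than 19S, 3 of 5 genes (60%, against 65.7% of all features) were called by the F test. PSME1 and PSME2 encode the alpha and beta chains of the PA28 ring, an interferon-induced cap that opens the core without ATP, and they lie near each other in opposite orientation on chromosome 14. Their stretches, chr14:24136110-24136209, plus strand for PSME1 and chr14:24146601-24146700, minus strand for PSME2, hold the same ISRE match as PSMB8 and PSMB10, in capitals.
PSME1: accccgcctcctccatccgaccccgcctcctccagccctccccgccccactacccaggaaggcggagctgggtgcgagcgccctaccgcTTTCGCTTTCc
PSME2: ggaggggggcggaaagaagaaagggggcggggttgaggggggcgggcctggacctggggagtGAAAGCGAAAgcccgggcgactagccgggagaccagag
PSME1 (chr14:24136158-24138967, plus strand) had 1482, 1476 and 1421 in GFP, 1837 and 1902 in Oct4, 1018 and 1101 in Sox2, 1645 and 1511 in Klf4, and 1648 and 1692 in OSK. It was above GFP in Oct4, Klf4 and OSK, and below every other library in Sox2. The log2 change was 0.36 (SE 0.07, limma adjusted p = 0.000589) in Oct4 and -0.46 (SE 0.07, limma adjusted p = 4.04e-05) in Sox2. The change of 0.19 (limma adjusted p = 0.0323) in OSK was kept under 12 of 20 alternatives and lost without GFP replicate 2, GFP replicate 3, OSK replicate 1 or OSK replicate 2, and that of 0.11 (limma adjusted p = 0.236) in Klf4 was not called. PSME2 (chr14:24143362-24147570, minus strand) had 608, 566 and 606 in GFP, 1202 and 1059.8 in Oct4, 834 and 884 in Sox2, 672 and 679.9 in Klf4, and 643 and 678 in OSK. Both Oct4 and both Sox2 libraries were above all others, with Oct4 the higher. It rose by 0.93 (SE 0.08, limma adjusted p = 1.57e-07) in Oct4 and 0.53 (SE 0.08, limma adjusted p = 4.73e-05) in Sox2, so that in Sox2 the 2 chains of the ring changed in opposite directions. In Klf4 and OSK, where the immunoproteasome genes rose, PSME2 changed by 0.19 (limma adjusted p = 0.0811) and 0.15 (limma adjusted p = 0.14).

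PSME4 (chr2:53864067-53970840, minus strand) encodes PA200, a nuclear cap known for its part in chromatin and DNA repair, and was the single member called against GFP in all 4 lines. Its values were 1531, 1623 and 1726 in GFP, 2089 and 2078 in Oct4, 2008 and 1879 in Sox2, 1341 and 1393 in Klf4, and 2493 and 2583 in OSK. OSK was above all other libraries, Oct4 and Sox2 lay above GFP, and Klf4 lay below GFP. The change was 0.64 (SE 0.07, limma adjusted p = 1.56e-06) in OSK, 0.36 (SE 0.07, limma adjusted p = 0.000594) in Oct4 and 0.26 (SE 0.07, limma adjusted p = 0.00619) in Sox2, and -0.25 (SE 0.07, limma adjusted p = 0.00988) in Klf4. The Sox2 call was lost without Sox2 replicate 1, and the Klf4 call was lost without Klf4 replicate 1. The other 2 genes moved least. PSME3, the nuclear PA28 gamma chain, had 2021, 2204 and 2136 in GFP, 2198 and 2176 in Oct4, 2064 and 2042 in Sox2, 1849 and 1946 in Klf4, and 1973 and 1991 in OSK. PSMF1, the inhibitor PI31, had 1418, 1604 and 1591 in GFP, 1516 and 1541 in Oct4, 1471 and 1480.5 in Sox2, 1566 and 1531 in Klf4, and 1383 and 1352 in OSK. PSME3 lay below GFP in Klf4 and OSK, and PSMF1 in OSK, while the other lines were within the range of GFP. Neither was called against GFP in any line, and their limma F test adjusted p was 0.0869 and 0.188. PSME3 was higher in Oct4 than in Klf4 by 0.21 (limma adjusted p = 0.0256), a call kept under 16 of 20 alternatives and lost without Oct4 replicate 1, Oct4 replicate 2 or Klf4 replicate 1. Summed over the 5 genes, the class made up 424 to 435 CPM in GFP, 489 to 492 in Oct4, 436 to 438 in Sox2, 394 to 396 in Klf4 and 477 to 485 in OSK.

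In the 20S core, 6 of the 14 genes tested (42.9%, against 65.7% of all features) were called by the F test, and the median log2 change was between 0.03 and 0.10 in each line. In Oct4, 4 rose and 1 fell, in Sox2 2 rose and 1 fell, in Klf4 1 rose, and in OSK 2 rose and 1 fell. Of all features, 17.6% to 21.7% were called higher and 16% to 20% lower in these comparisons. PSMA5, an alpha subunit (chr1:109399031-109426427, minus strand), had 1080.4, 1093 and 1088 in GFP, 1744 and 1782 in Oct4, 1088 and 1123 in Sox2, 1174 and 1103 in Klf4, and 1087 and 1161 in OSK. The Oct4 libraries stood far above the other 9, which lay close together. The change in Oct4 was 0.70 (SE 0.07, limma adjusted p = 5.18e-07), and the 3 other lines had changes of 0.02 to 0.07 that were not called. PSMB2, a beta subunit without a cutting site, had 1188, 1374 and 1317 in GFP, 1782 and 1848 in Oct4, 1352 and 1340.0 in Sox2, 1441 and 1372 in Klf4, and 1634 and 1575 in OSK. Oct4 was highest and OSK next, both above all GFP libraries, with changes of 0.49 (SE 0.07, limma adjusted p = 5.22e-05) and 0.31 (SE 0.07, limma adjusted p = 0.00239).

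PSMA6, another alpha subunit (chr14:35278633-35317493, plus strand), had 103, 132 and 105 in GFP, 116 and 116 in Oct4, 145 and 115 in Sox2, 199 and 194 in Klf4, and 217 and 213 in OSK. Both Klf4 and both OSK libraries were above all others, and Oct4 and Sox2 overlapped with GFP. The change was 0.80 (SE 0.15, limma adjusted p = 0.000704) in Klf4 and 0.93 (SE 0.15, limma adjusted p = 0.000134) in OSK, in the lines with the largest sum of proliferation markers. Its level per kilobase of exon was low for a core gene, 17.4 in GFP. Its exons overlap a gene model on the same strand, AL121594.1, over 14.1% of their length, and that model had 2.02 to 9.29 normalised counts. How reads in the shared exons were counted was not tested. PSMA7 had 1739, 2046 and 1882 in GFP, 1735 and 1699.6 in Oct4, 2221 and 2284 in Sox2, 1879.5 and 1941 in Klf4, and 1968 and 2007 in OSK. Sox2 was above all other libraries, with a change of 0.26 (SE 0.07, limma adjusted p = 0.00818) that was not called without Sox2 replicate 2.

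PSMA3, an alpha subunit given in full after its values were seen, had 678, 784 and 720.3 in GFP, 903 and 933 in Oct4, 824 and 914 in Sox2, 886 and 688 in Klf4, and 807 and 813 in OSK. Both Oct4 libraries were above every GFP library, with Sox2 replicate 2 between them, and the change of 0.34 (limma adjusted p = 0.0145) in Oct4 was kept under 17 of 20 alternatives and lost without Oct4 replicate 1 or Oct4 replicate 2. PSMB1, a beta subunit without a cutting site, ranged from 1217 to 1525, and its change of 0.20 (limma adjusted p = 0.0474) in Oct4 was kept under 5 of 20 alternatives and lost without GFP replicate 1, GFP replicate 3, Oct4 replicate 1, Oct4 replicate 2, Sox2 replicate 1, Sox2 replicate 2, OSK replicate 1 or OSK replicate 2. PSMA2 was counted at 8 to 37.0 (7 to 33 reads) in all libraries, and its exons overlap the gene models AC010132.2 and AC010132.3. PSMA1, PSMA4, PSMB3 and PSMB4 were not called in any of the 10 pairwise comparisons. PSMA1 ranged from 261 to 318 and PSMB4 from 2127 to 2578. The smallest ranges of group means were 0.11 log2 in PSMA4 and 0.12 in PSMB3. PSMA4, an alpha subunit, had 1459, 1501 and 1437 in GFP, 1580.4 and 1411 in Oct4, 1539 and 1621 in Sox2, 1492 and 1579 in Klf4, and 1505 and 1607 in OSK. PSMB3, a beta subunit, had 702, 844 and 779.6 in GFP, 705 and 816 in Oct4, 801 and 820.3 in Sox2, 861 and 786 in Klf4, and 863 and 779 in OSK. PSMA4 lay above GFP in Sox2 and OSK and overlapped with it in Oct4 and Klf4, and PSMB3 overlapped with GFP in every line. As a share of the library, the core made up 886 to 921 CPM in GFP, 930 to 931 in Oct4, 947 to 964 in Sox2, 883 to 902 in Klf4 and 953 to 957 in OSK. The order of the lines turned on the scaling: with TMM scaling Oct4 came to 957, Sox2 to 937 and OSK to 942.

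The 19S regulatory class included the assembly chaperones PSMD5, PSMD9 and PSMD10. In this class 11 of 20 genes (55%, against 65.7% of all features) were called by the F test. The most calls against GFP were in Sox2. The 11 genes called in Sox2, the 6 called in Oct4 and the 5 called in OSK had all risen, and in Klf4 3 rose and 1 fell. Of all features, 21.7% were called higher in Sox2, 20.1% in Oct4, 17.6% in Klf4 and 19.7% in OSK. The median log2 change of the 20 genes was 0.19 in Sox2, 0.09 in Oct4, 0.05 in Klf4 and 0.11 in OSK. As a share of the library the class made up 2068 to 2094 CPM in Sox2 and 1662 to 1741 in GFP, with 1780 to 1823 in Oct4, 1614 to 1660 in Klf4 and 1830 to 1855 in OSK. Both Sox2 libraries thus lay above every other library. In normalised counts the class summed to 28257 to 29919 in GFP and 35051 to 35371 in Sox2. PSMD2 alone had means of 4769 and 7469 in these lines, so a large part of the difference was that gene.

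PSMD2 (chr3:184298709-184309054, plus strand), the scaffold subunit that docks ubiquitin receptors, had the highest level per kilobase of exon in its class, 874 normalised counts in GFP against a class median of 293. It had 4795, 4858 and 4652 in GFP, 5456 and 4899 in Oct4, 7799.9 and 7138 in Sox2, 3889.8 and 4287 in Klf4, and 4776 and 4867 in OSK. Sox2 stood above all other libraries, and Klf4 below all others. The log2 change was 0.65 (SE 0.07, limma adjusted p = 1.8e-06) in Sox2 and -0.22 (SE 0.07, limma adjusted p = 0.0228) in Klf4, the second of which was kept under 17 of 20 alternatives and lost without GFP replicate 2 or Klf4 replicate 1. PSMD14, the deubiquitinase that removes ubiquitin from substrates, had 787, 757 and 739.8 in GFP, 835 and 770.3 in Oct4, 1061 and 1129 in Sox2, 919.5 and 851 in Klf4, and 876 and 954 in OSK. Sox2 was above all others and Oct4 lay close to GFP. PSMD14 rose by 0.52 (SE 0.08, limma adjusted p = 4.15e-05) in Sox2 and by 0.26 (limma adjusted p = 0.0121) in OSK, where the call was kept under 18 of 20 alternatives and lost without OSK replicate 2. The change of 0.22 (limma adjusted p = 0.0401) in Klf4 was kept under 10 of 20 alternatives and lost without GFP replicate 2, GFP replicate 3, Sox2 replicate 1, Sox2 replicate 2, Klf4 replicate 1 or Klf4 replicate 2.

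PSMD3 (chr17:39980797-39997960, plus strand), a subunit of the 19S lid, and PSMD5 (chr9:120815496-120842984, minus strand), a chaperone of 19S assembly, are shown with their promoters. Each holds a match to TGACNNNGC, the core of the antioxidant response element bound by NFE2L1 and NFE2L2. As background, NFE2L1 drives proteasome genes when the proteasome is impaired. The match was in 15 of 42 members with a RefSeq window (35.7%, against 16.06% of all genes). PSMA4, PSMB3, PSMC4 and PSMD9, which were not called against GFP, also held it. Its part in the changes was not tested. The stretches are chr17:39980717-39980816, plus strand for PSMD3, ending 10 bases after the RefSeq start site, and chr9:120843003-120843102, minus strand for PSMD5, ending before it, with the match in capitals.
PSMD3: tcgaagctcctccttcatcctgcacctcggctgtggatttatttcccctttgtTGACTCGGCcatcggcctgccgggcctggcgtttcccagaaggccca
PSMD5: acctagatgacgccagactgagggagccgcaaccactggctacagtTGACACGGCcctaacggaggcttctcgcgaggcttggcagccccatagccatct
PSMD3 had 2757, 2967 and 2929 in GFP, 4767 and 4376 in Oct4, 3171 and 3034 in Sox2, 2549 and 2791 in Klf4, and 3222 and 3309.6 in OSK. The Oct4 libraries were far above the rest, OSK lay above GFP, and Sox2 and Klf4 lay close to GFP. The change was 0.66 (SE 0.07, limma adjusted p = 1.12e-06) in Oct4, and that of 0.18 (limma adjusted p = 0.0458) in OSK was kept under 7 of 20 alternatives and lost without GFP replicate 1, GFP replicate 2, GFP replicate 3, Sox2 replicate 1, Sox2 replicate 2, OSK replicate 1 or OSK replicate 2. PSMD5 had 439, 505 and 511 in GFP, 812 and 739 in Oct4, 984 and 928 in Sox2, 501 and 492 in Klf4, and 504 and 563 in OSK. Sox2 was highest and Oct4 next, both without overlap with the other lines, while Klf4 and OSK lay near GFP. It rose by 0.98 (SE 0.09, limma adjusted p = 2.85e-07) in Sox2 and 0.68 (SE 0.09, limma adjusted p = 2.09e-05) in Oct4, against 0.14 (limma adjusted p = 0.254) in OSK, the line that also received Oct4 and Sox2.

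The other chaperones of 19S assembly are PSMD9 and PSMD10. PSMD10, known as gankyrin, had 701, 728 and 707 in GFP, 943 and 948 in Oct4, 907 and 954 in Sox2, 731 and 662 in Klf4, and 581 and 747 in OSK. Both Oct4 and both Sox2 libraries were above all others, as for PSMD5, and the lowest library was OSK replicate 1. PSMD10 rose by 0.41 (SE 0.09, limma adjusted p = 0.0029) in Oct4 and 0.38 (SE 0.09, limma adjusted p = 0.00376) in Sox2 and was lower in OSK than in Oct4 by -0.52 (SE 0.10, limma adjusted p = 0.000756), a difference of -0.34 without OSK replicate 1. PSMD9 ranged from 134 to 203 and was not called against GFP.

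Of the ATPases, PSMC5, described here after its values were seen, changed in 3 lines. It had 1311, 1387 and 1299 in GFP, 1258 and 1235 in Oct4, 1498 and 1512 in Sox2, 1645 and 1679 in Klf4, and 1792 and 1721 in OSK. Klf4 and OSK were highest, Sox2 was also above GFP, and Oct4 was below it. The change was 0.32 (SE 0.06, limma adjusted p = 0.00101) in Klf4 and 0.40 (SE 0.06, limma adjusted p = 0.000101) in OSK, while that of 0.18 (limma adjusted p = 0.0358) in Sox2 was kept under 11 of 20 alternatives and lost without GFP replicate 1, GFP replicate 3, Sox2 replicate 1 or Sox2 replicate 2. As for PSMA6, the highest levels were in the lines with the largest sum of proliferation markers. Its exons overlap those of FTSJ3, on the other strand, over 19.5% of their length. The other ATPases moved less. PSMC3, given in full after its values were seen, had 1612, 2033 and 1919 in GFP, 1853 and 2072 in Oct4, 2154 and 2442 in Sox2, 1978 and 1969 in Klf4, and 1995 and 1865 in OSK. Both Sox2 libraries were above all others, and the change of 0.31 (limma adjusted p = 0.0124) was kept under 19 of 20 alternatives and lost without Sox2 replicate 2. PSMC1 (949 to 1188) changed by 0.20 (limma adjusted p = 0.0307) in Sox2, a call kept under 12 of 20 alternatives and lost without GFP replicate 1, Sox2 replicate 1 or Sox2 replicate 2. PSMC2 (1494 to 1864) changed by 0.19 (limma adjusted p = 0.035) in Sox2 and 0.20 (limma adjusted p = 0.0402) in Klf4, calls kept under 12 and 11 of 20 alternatives. The Sox2 call was lost without GFP replicate 1, GFP replicate 2, Sox2 replicate 1 or Sox2 replicate 2, and the Klf4 call without GFP replicate 1, GFP replicate 2, Sox2 replicate 1, Sox2 replicate 2 or Klf4 replicate 1. PSMC6 (982 to 1292) changed by 0.21 (limma adjusted p = 0.0292) in Oct4, a call kept under 14 of 20 alternatives and lost without GFP replicate 3, Oct4 replicate 1 or Oct4 replicate 2. PSMC4 ranged from 1343 to 1655 with no call against GFP. PSMC1 is uncertain, since 75.8% of its exon length lies over NRDE2 on the other strand and 19.4% of its 50-base sequences occur in the pseudogene PSMC1P1.

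The lid subunits PSMD8 and PSMD12, described after their values were seen, rose in 3 lines each. PSMD8 had 1358, 1660.1 and 1456 in GFP, 1724 and 1769 in Oct4, 2006 and 2052 in Sox2, 1731 and 1608 in Klf4, and 1862 and 1784 in OSK. PSMD12 had 946, 911 and 1040.1 in GFP, 1155 and 1224 in Oct4, 1229 and 1259.5 in Sox2, 974 and 976 in Klf4, and 1111 and 1197 in OSK. Sox2 was highest on average for both, and Klf4 was nearest to GFP. The change of PSMD8 was 0.45 (limma adjusted p = 0.000253) in Sox2, 0.29 (limma adjusted p = 0.00756) in OSK and 0.23 (limma adjusted p = 0.0309) in Oct4. That of PSMD12 was 0.37 (limma adjusted p = 0.000848) in Sox2, 0.30 (limma adjusted p = 0.0046) in Oct4 and 0.26 (limma adjusted p = 0.0117) in OSK. For both genes the Sox2 call alone was kept under all alternatives. Of the others, PSMD8 was not called in OSK without OSK replicate 1 or in Oct4 without GFP replicate 1, GFP replicate 3, Oct4 replicate 1 or Oct4 replicate 2, and PSMD12 was not called in Oct4 without Oct4 replicate 2 or in OSK without OSK replicate 2.

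PSMD1, the other scaffold subunit, ranged from 1668 to 2137 and changed by 0.25 (limma adjusted p = 0.00789) in Sox2, a call lost without Sox2 replicate 2. PSMC4, PSMD4, PSMD6, PSMD7, PSMD9, PSMD11 and PSMD13 were not called against GFP in any line. The lid subunits among them ranged from 1363 to 1669 for PSMD6, 718 to 980.0 for PSMD7 and 1111 to 1301 for PSMD11. The smallest ranges of group means in the class were 0.16 log2 in PSMD13 and 0.17 in PSMD4. PSMD13, a lid subunit, had 1408, 1329 and 1348 in GFP, 1266 and 1279.6 in Oct4, 1325 and 1419 in Sox2, 1357 and 1394 in Klf4, and 1414 and 1433 in OSK. PSMD4, a ubiquitin receptor, had 1756, 1989.9 and 1830.4 in GFP, 1716 and 1745 in Oct4, 1751 and 1837 in Sox2, 1913 and 1948 in Klf4, and 1937 and 1968 in OSK. Oct4 lay below GFP for both genes and OSK above it for PSMD13, and the other lines overlapped with GFP, with limma F test adjusted p of 0.341 and 0.197.

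The assembly chaperones of the core held the widest change outside the immunoproteasome. PSMG1 (chr21:39174769-39183851, minus strand), which forms a pair with PSMG2 that starts the alpha ring, had 478, 488 and 511 in GFP, 913 and 997 in Oct4, 302 and 316 in Sox2, 398 and 416 in Klf4, and 431 and 422 in OSK. Oct4 lay far above all other libraries and Sox2 below all others, with Klf4 and OSK between Sox2 and GFP. It rose by 0.95 (SE 0.08, limma adjusted p = 2.05e-07) in Oct4, a 1.94-fold ratio of means, and fell by 0.67 (SE 0.08, limma adjusted p = 7.49e-06) in Sox2. In Klf4 the change was -0.27 (limma adjusted p = 0.019), a call kept under 15 of 20 alternatives and lost without GFP replicate 3 or Klf4 replicate 1. In OSK it was -0.20 (limma adjusted p = 0.0648), with an unadjusted 95% interval of -0.38 to -0.03. Its partner PSMG2 did not follow it. PSMG2 had 391, 435 and 388 in GFP, 383 and 422 in Oct4, 402 and 426 in Sox2, 493 and 481 in Klf4, and 474 and 481 in OSK, with overlap between GFP and both Oct4 and Sox2, and changes of -0.01 in Oct4 and 0.03 in Sox2. The change of 0.27 (limma adjusted p = 0.0315) in Klf4 was kept under 11 of 20 alternatives and lost without GFP replicate 1, GFP replicate 3, Klf4 replicate 1 or Klf4 replicate 2, and that of 0.24 (limma adjusted p = 0.0463) in OSK was kept under 7 of 20 alternatives and lost without GFP replicate 1, GFP replicate 3, Sox2 replicate 1, Sox2 replicate 2, Klf4 replicate 1, Klf4 replicate 2, OSK replicate 1 or OSK replicate 2.

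PSMG3 and PSMG4 form the other chaperone pair. PSMG4 had 183, 209 and 231 in GFP, 217 and 225 in Oct4, 130.2 and 164 in Sox2, 212 and 213 in Klf4, and 194 and 190.3 in OSK. Sox2 was below all other libraries, with a change of -0.50 (SE 0.14, limma adjusted p = 0.00772) that was not called without Sox2 replicate 1. PSMG3 had 234, 241 and 185 in GFP, 211 and 197 in Oct4, 275 and 251 in Sox2, 238 and 206 in Klf4, and 196 and 247 in OSK. Both Sox2 libraries were above all others and the other lines overlapped, with a limma F test adjusted p of 0.306. The chaperones summed to 74.6 to 79.2 CPM in GFP, 95.3 to 103 in Oct4 and 65.6 to 68.3 in Sox2. Klf4 had 73.8 to 74.7 and OSK 76.0 to 78.4. The higher sum in Oct4 came from PSMG1, with a mean of 492 normalised counts in GFP and 955 in Oct4. PSMG2, PSMG3 and PSMG4 had means of 405, 220 and 208 in GFP and 403, 204 and 221 in Oct4.

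**Figure D5:**
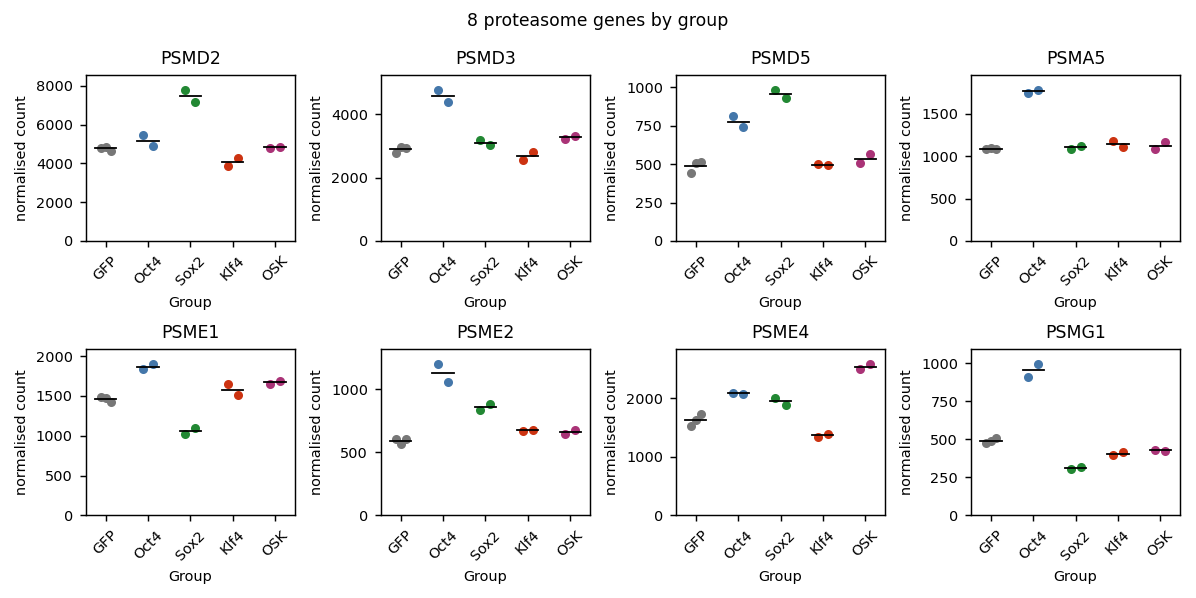
Points are normalised counts of each library by group and bars group means, for PSMD2, PSMD3, PSMD5, PSMA5, PSME1, PSME2, PSME4 and PSMG1; each axis starts at 0. PSMD3, PSMA5 and PSMG1 are highest in Oct4, PSMD2 and PSMD5 in Sox2 and PSME4 in OSK, and PSME1 and PSMG1 are lowest in Sox2.

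Between the lines, OSK was compared with each single factor. Against Oct4, 7 members were higher and 8 lower in OSK (40.3% of all features called, 18.4% higher and 21.9% lower; among features with a mean of at least 100, 25.5% and 28.5%). Against Sox2, 11 were higher and 6 lower (40.5% called, 20% higher and 20.5% lower; 26.5% and 28.3% of the abundant features). Against Klf4, limma called 5 as higher and 0 as lower (21.5% called, 9.56% higher and 11.9% lower; 14% and 17.1% of the abundant features). In that comparison 10 members had an unadjusted p under 0.05, and edgeR and DESeq2 called 3 each. OSK and Klf4 thus had the fewest calls between them, of the members as of all features. None of the immunoproteasome genes was called between OSK and Klf4, with differences of -0.14 for PSMB8 (95% interval -0.51 to 0.23), -0.51 for PSMB9 (-1.29 to 0.26) and 0.05 for PSMB10 (-0.38 to 0.47). These intervals do not show that the levels are equal. PSME4 was the member that separated OSK from Klf4 under every alternative, by 0.89 (SE 0.07, limma adjusted p = 3.2e-07). The count between OSK and Klf4 was 3 without Klf4 replicate 2, 2 without OSK replicate 1, 1 without Klf4 replicate 1 or OSK replicate 2, and 9 without GFP replicate 1.

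Several genes that were high in Oct4 or Sox2 were lower in OSK than there. Against Oct4, PSMG1 was lower by a log2 difference of -1.16 (SE 0.09, limma adjusted p = 5.45e-08), PSME2 by -0.77 (limma adjusted p = 2.79e-06), PSMA5 by -0.65 (limma adjusted p = 2.61e-06) and PSMD3 by -0.48 (limma adjusted p = 6.85e-05). Against Sox2, PSMD5 was lower by -0.84 (SE 0.10, limma adjusted p = 4.67e-06) and PSMD2 by -0.63 (limma adjusted p = 6.97e-06). The immunoproteasome genes were higher in OSK than in Sox2, PSMB8 by 2.01 (limma adjusted p = 1.33e-07), PSMB9 by 2.46 (limma adjusted p = 4.84e-05) and PSMB10 by 0.94 (limma adjusted p = 0.00122).

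Among the single factors, Oct4 had 12 members higher and 8 lower than Sox2 (33.4% of all features called, 18% higher and 15.4% lower; 23.5% and 22.5% of the abundant features). It had 15 higher and 4 lower than Klf4 (41.7% called, 21.8% higher and 20% lower; 28.3% and 27.1% of the abundant features). Sox2 had 12 higher and 7 lower than Klf4 (40.8% called, 20.1% higher and 20.7% lower; 27.8% and 27% of the abundant features). Between Oct4 and Sox2, the members with the smallest adjusted p were PSMG1, at 1.62 (SE 0.09, limma adjusted p = 1.77e-09), PSMB10, at 2.44 (limma adjusted p = 9.19e-08), and PSME1, at 0.82 (limma adjusted p = 3.27e-07). Between Oct4 and Klf4, PSMB10 was higher in Oct4 by 1.55 (limma adjusted p = 9.5e-06) and PSMB8 lower by -0.70 (limma adjusted p = 0.00397), so the order of the 2 lines differed between these genes. The PSMB8 difference was not called without Klf4 replicate 1. PSMB9 did not separate them, at 0.09 with a 95% interval of -0.69 to 0.86. Without the 2 libraries that stood apart, the 3 counts of calls were 22, 20 and 20.

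Of 35 companion genes of the proteasome listed from general knowledge (other subunits, chaperones, ubiquitin receptors, ubiquitin genes and regulators), 34 were tested and 32 (94.1%, against 65.7% of all features and 84.9% of those with a mean of at least 100) were called by the F test. Against GFP, 6 rose and 8 fell in Oct4, 15 rose and 6 fell in Sox2, 11 rose and 6 fell in Klf4 and 15 rose and 8 fell in OSK, where 37.3%, 41.6%, 33.5% and 39.7% of all features were called in either direction. The median range of the companions was 0.52 log2. POMP, the chaperone that completes the core, rose by 0.78 (SE 0.08, limma adjusted p = 5.77e-07) in Sox2, where its libraries had 1687 and 1905 against 1001, 1130.0 and 1003 in GFP. PAAF1, a 19S assembly factor, fell by 1.06 on the log2 scale in OSK (limma adjusted p = 4.23e-05), with 125 and 142 against 257, 303 and 277. DDI2, the protease that activates NFE2L1, changed by -0.64 (limma adjusted p = 7.57e-06) in Sox2 and 0.32 (limma adjusted p = 0.00431) in OSK. MAFF and MAFG encode small partners of NFE2L1 and NFE2L2. MAFF rose by 0.84 (limma adjusted p = 1.79e-05) in Klf4 and MAFG by 0.74 (limma adjusted p = 1.57e-05) in Sox2. Neither was above GFP in that line alone. MAFF had 733 and 807 in Sox2 and 792 and 794 in OSK, against 445, 572 and 609 in GFP. MAFG had 1321 and 1185 in Oct4 and 1170 and 1232 in OSK, against 819, 1073 and 952 in GFP.

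Ubiquitin shuttles and a proteasome-bound deubiquitinase were also among the companions with the largest ranges. UBQLN1 rose by 0.78 (limma adjusted p = 2.59e-07) in OSK, and UBQLN4 changed by -0.89 (limma adjusted p = 5.45e-07) there and -0.70 (limma adjusted p = 1.06e-05) in Klf4. UCHL5, the deubiquitinase, rose by 0.84 (limma adjusted p = 5.6e-07) in OSK and 0.72 (limma adjusted p = 4.46e-06) in Klf4. NFE2L1 itself, named after its values were seen, ranged from 10914 to 14992 and changed by 0.24 (limma adjusted p = 0.0107) in Sox2 and -0.18 (limma adjusted p = 0.0542) in Oct4. NFE2L2, also named after its values were seen, changed by 0.66 (limma adjusted p = 1.42e-06) in OSK and 0.37 (limma adjusted p = 0.000615) in Klf4.

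Promoter sequence was compared over all members with a RefSeq window of 250 bases before to 50 after a start site. Windows matched 42 of the 48 members (51 windows), and PSMA7, PSMB1, PSMB6, PSMB7, PSMD4 and PSMG3 had none. The ISRE core, with every motif searched on both strands, was in 7 of 51 member windows (13.7%) and in 3.57% of all 35116 windows. The genes were PSMA4, PSMB4, PSMB8, PSMB10, PSME1, PSME2 and PSMG4. Of these, PSMA4 and PSMB4 were among the members not called in any comparison. The antioxidant core TGACNNNGC was in 15 of 51 (29.4%) and in 13.35% of all windows, and TTCNNNGAA, the core of the gamma interferon site, in 8 of 51 (15.7%) and 7.66%. Of letters linked to the delivered factors, the Oct4 octamer ATGCAAAT was in 0 of 51 windows (1.77% of all), CATTGTT, bound by SOX factors, in 1 of 51 (1.96% and 3.33%), and CCACCC, bound by KLF factors, in 17 of 51 (33.3% and 34.3%). CCAAT was in 20 of 51 (39.2% and 34.6%). Some members have more than 1 window, the windows of neighbouring genes can overlap, and these shares are descriptions without a test.

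Among members with a window, 4 of 16 that were higher in Oct4 held the ISRE core, against 3 of 24 others tested. The same counts were 1 of 13 and 6 of 27 in Sox2, 2 of 8 and 5 of 32 in Klf4, and 3 of 13 and 4 of 27 in OSK. The antioxidant core was in 8 of 16 higher in Oct4 and 7 of 24 others, in 6 of 13 and 9 of 27 in Sox2, in 3 of 8 and 12 of 32 in Klf4, and in 7 of 13 and 8 of 27 in OSK. By gene, PSMD3 and PSMD5 held an antioxidant match, and PSMD2 and PSMD14, which were highest in Sox2, held none in their windows. PSMB3, with nearly level values, also held one. The part of either core in the changes was not tested.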

How the data were processed

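The authors deposited 1 table of normalised counts, a signal per feature, for 11 libraries: per the labels' protocols, polyadenylated RNA was extracted with TRIzol and made into libraries with the NEBNext Ultra II kit. Per the submitters' processing notes, STAR 2.7.1a and featureCounts 1.6.2 were used, and human (GRCh38, hg38) and mouse (GRCm38, mm10) builds are listed without a role. The annotation and the use of strand are not given in the sources used here. In every library 100% of the values up to 200 were whole multiples, within 0.0061, of 1 library factor, so whole reads were recovered for count tests.

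The 18828 features with 10 or more normalised counts in 2 or more libraries were tested on log2(value + 1) with limma 3.58.1 in R 4.3.3, in 1 fit of all 5 groups, with Benjamini-Hochberg adjustment over all 18828 and calls at 0.05. A log2 change on this scale understates the change of low genes. The 20 alternatives per count were edgeR 4.0.16 and DESeq2 1.42.0 on the recovered reads, TMM scaling, a pseudocount of 4, no filter, a filter of 50, only the compared groups, the replicate number as a block, each of the 11 libraries left out, and GFP replicate 1 and OSK replicate 1 left out together. The script was tested on simulated data. Values per kilobase used exon lengths of GENCODE release 29, and class sums are given as CPM of a library's summed values.

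The members and lists were chosen with earlier results of these data known. Values in every library are given for the catalytic genes and, in each class, for up to 5 members with the largest range of group means among those called by the F test and the 2 with the smallest. Up to 8 companion and 5 interferon genes are named by the same range; others are said to be chosen after their values were seen.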

Additional observations from a re-analysis of the deposited data

How the results depend on the processing

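Of the 410 changes of named genes, each computed under 20 alternatives, the alternatives kept the call or its absence 7906 times, lost a call 250 times and gained one 44 times, and no called change reversed. The count of members called in Klf4 against GFP was 11, and 7 with DESeq2, without the filter, with only the compared groups and with the replicate block. Leaving out 1 library gave 6 to 11, the lowest without Klf4 replicate 1. In Sox2 the count was 19, and 12 to 20 with 1 library left out, the lowest without either Sox2 replicate. In OSK it was 14, 9 with the replicate block, and 9 to 14 with 1 library left out, the lowest without either OSK replicate. Between OSK and Klf4 it was 5, 3 with edgeR, with DESeq2 and without GFP replicate 1 and OSK replicate 1, 2 without the filter and with the replicate block, and 1 to 9 with 1 library left out, the lowest without Klf4 replicate 1 or OSK replicate 2 and the highest without GFP replicate 1. The cause of these shifts was not tested. With scaling by trimmed means (TMM) 15 of the 25 class sums (CPM) moved by more than the spread of their replicates. The core was then at 957 in Oct4, 937 in Sox2, 919 in Klf4 and 942 in OSK, and the 19S genes at 1853, 2041, 1686 and 1816. The activators were at 420.5 in GFP, 504 in Oct4, 429 in Sox2, 407 in Klf4 and 474 in OSK, the assembly genes at 76.4 in Klf4 and the immunoproteasome genes at 54.1 in Oct4. The 19S sum was highest in Sox2 and the immunoproteasome sum lowest in GFP and Sox2 under both scalings. The deviations of libraries with the same replicate number had correlations of -0.07 to 0.44. The highest, 0.44, was between GFP replicate 1 and OSK replicate 1, the 2 libraries that stood apart. With 2 OSK libraries the deviations of each mirror those of the other. OSK replicate 2 thus had 0.31 with GFP replicate 2 and 0.34 with GFP replicate 3, which is no second agreement of numbers. The labels do not say what a number shares, and the numbers were not taken as pairs. With the replicate block PSME4 was also not called in Klf4. With 2 libraries in most groups, small changes in single genes are limited by the number of libraries.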
